A study of Arabidopsis thaliana with 12 samples.

Results

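The chromosome-arm transposon bins of the Arabidopsis thaliana genome that lie away from genes are 100 bp windows in which the submitters placed a transposable element and no gene, promoter or mature miRNA. Pericentromeric windows were left out by position: a member started outside 11 to 18 Mb of chromosome 1, 1 to 7 Mb of chromosome 2, 10 to 17 Mb of chromosome 3, 1 to 6 Mb of chromosome 4 and 9 to 16 Mb of chromosome 5. This choice used annotation and position alone and found 9748 of the 152484 bins listed. They carry 3336 transposable elements, and 2477 of the 18128 elements in the table have all their listed bins among them. Small RNA was sequenced from inflorescences of the mutants heso1-1, urt1-1 and ntp4-1 and of the wild type, all of the ecotype Col-0 and untreated, with 3 biological replicates per genotype. The labels name each mutant by its allele and no further. Growth was at 22 °C in long days (16 h light, 8 h dark). Values are RPM, that is, reads in a bin scaled to the depth of the library.

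In plants, RNA polymerase IV transcribes many transposons, RDR2 makes the transcripts double-stranded and DCL3 cuts them into siRNAs that guide DNA methylation back to the same sequence. The methyltransferase HEN1 protects the 3′ ends of miRNAs and siRNAs. HESO1 and URT1 are nucleotidyltransferases that add uridine to unprotected 3′ ends, and NTP4, named in the title of the series, belongs to the same family. The table gives no read length and no tail, so neither siRNA size classes nor uridylation were measured here.

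The sequences on which the results turn are shown on the forward strand, 5′ to 3′, from the RefSeq reference TAIR10.1. Capitals mark bases inside a 24-base word found more than once in that genome, so any 24-base word that touches a lower-case base is found once. The first is the bin of highest level, in AT3TE75240. The others are the bins that differed most between a mutant and Col-0.
AT3TE75240, chr3:18545501-18545600: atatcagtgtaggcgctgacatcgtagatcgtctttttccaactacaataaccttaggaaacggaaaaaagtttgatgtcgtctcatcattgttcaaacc
AT2TE60325, chr2:13702501-13702600: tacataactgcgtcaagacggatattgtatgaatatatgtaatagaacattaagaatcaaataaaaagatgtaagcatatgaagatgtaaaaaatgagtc
AT1TE71640, chr1:21710501-21710600: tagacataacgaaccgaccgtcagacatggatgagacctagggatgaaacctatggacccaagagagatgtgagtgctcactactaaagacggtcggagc
AT2TE49070 and AT2TE49075, chr2:11346501-11346600: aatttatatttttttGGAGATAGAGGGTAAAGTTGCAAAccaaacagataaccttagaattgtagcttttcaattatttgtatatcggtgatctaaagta
AT1TE02540, chr1:781501-781600: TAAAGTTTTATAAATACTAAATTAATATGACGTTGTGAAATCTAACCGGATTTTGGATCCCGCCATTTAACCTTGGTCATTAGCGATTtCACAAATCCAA
AT1TE05700, chr1:1739101-1739200: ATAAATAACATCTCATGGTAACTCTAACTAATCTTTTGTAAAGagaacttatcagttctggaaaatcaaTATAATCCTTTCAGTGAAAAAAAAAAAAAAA
The first 3 of these hold no repeated 24-base word, whereas nearly all of the AT1TE02540 bin is repeated.

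Libraries of the same genotype differed from each other. The listed bins held 28.7% of the reads in ntp4-1 replicate 1 and up to 67.5% in Col-0 replicate 2. In 11 libraries the RPM could be turned back into whole reads, and there 1 read was worth 0.0894 to 0.362 RPM, and the arm transposon bins held 66387 to 376767 reads. A bin listed at 0 may therefore hold up to 3 reads' worth, which is 0.268 to 1.09 RPM and covers counting error only. Across the bins that are not members, the first principal component set 5 libraries (replicate 1 of every genotype and urt1-1 replicate 3) apart from the other 7. Chloroplast bins, a sign of green tissue, summed to 25493 to 43247 RPM in heso1-1, 33253 to 49680 RPM in urt1-1, 38792 to 65588 RPM in ntp4-1 and 31129 to 42316 RPM in Col-0. Bins of miR845, a pollen miRNA, summed to 119 to 2426 RPM in heso1-1, 340 to 2067 RPM in urt1-1, 288 to 853 RPM in ntp4-1 and 1485 to 2854 RPM in Col-0. All 12 inflorescence libraries thus held both. Of the mutants, ntp4-1 alone lay wholly apart from Col-0 in miR845. Within the 5 libraries that stood apart, and within the other 7, every mutant library was below every Col-0 library in miR845. The part of green tissue and pollen in the results below was not tested. In these bulk samples, fewer cells of a type and less small RNA per cell cannot be told apart.

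Most arm transposon bins gave little small RNA, and a few gave much. The median bin had a mean of 0.665 RPM over the 12 libraries, the quartiles were 0.297 and 1.88 RPM, and 3825 bins (39.2%) reached a mean of 1 RPM. The 10 leading bins held 17% of the summed RPM, the leading 100 held 34.0% and the leading 1000 held 66.7%. The median was higher than in pericentromeric transposon bins away from genes (0.417 RPM, 23452 bins), in transposon bins that also list a gene, promoter or miRNA (0.359 RPM) and in bins with a gene and no transposon (0.350 RPM). Bins with no annotation had a median of 0.577 RPM, promoter bins 0.624 RPM and mitochondrial bins 0.270 RPM. The members' median was below that of miRNA bins (2.61 RPM) and chloroplast bins (0.822 RPM). These are descriptions of listed bins, since a bin without reads is not in the table.

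The arm bins lay mostly in short stretches. They formed 3834 runs of adjacent bins, of which 1453 were a single bin and the longest was 26 bins. Bins that stood alone had a median of 0.341 RPM, bins in runs of 2 to 4 had 0.728 RPM, bins in runs of 5 to 9 had 0.733 RPM and the 679 bins in runs of 10 or more had 1.04 RPM. The longest run, chr5:8824401-8827000, summed to 1653 RPM and holds 4 of the 10 leading bins, all in the element AT5TE31885. Level varied little with distance to a gene of the reference. The median was 0.734 RPM within 500 bp of a gene, 0.659 RPM at 500 to 1000 bp, 0.646 RPM at 1000 to 2000 bp and 0.643 RPM beyond 2000 bp. Although none lists a gene, 385 members overlapped a gene of the reference.

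Base composition went with level. The median GC content was 32% in the highest 10% of the members by level and 26% in the lowest 10%, and Spearman's rho between level and GC content was 0.24 over the 9748 bins. This is a description across bins that share libraries and neighbours. Repetition went with level only weakly (rho 0.049 with the share of 24-base words found once). The 2181 bins in which every 24-base word is found once made up 22.4% of members and 36.2% of their RPM. The 734 bins in which no word is found once made up 7.53% of members and 3.08% of their RPM, and placement of reads there is uncertain. The 5 chromosomes had like medians, 0.649 to 0.691 RPM, but chromosome 5 held 21.6% of the members and 30.6% of their RPM.

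The highest bins were strong in every genotype. The AT3TE75240 bin, whose sequence stands first above, had 776, 898 and 933 RPM in heso1-1, 1034, 979 and 764 RPM in urt1-1, 545, 586 and 665 RPM in ntp4-1, and 780, 1081 and 1235 RPM in Col-0. All 3 ntp4-1 libraries lay below all 3 Col-0 libraries, and the other mutants overlapped with Col-0. A pair of adjacent bins of AT5TE27655, chr5:7649101-7649300, followed. Its right bin had 738, 776 and 481 RPM in heso1-1, 1222, 496 and 688 RPM in urt1-1, 219, 281 and 422 RPM in ntp4-1, and 886, 1344 and 1351 RPM in Col-0. Here both heso1-1 and ntp4-1 lay wholly below Col-0. In ntp4-1 the log2 fold change was -1.98 ± 0.39 (SE), and it did not pass the test described below (limma adjusted p = 0.103, with alternatives from 8.49e-06 under the replicate block to 1).

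Some other leading bins were near or above the Col-0 level in ntp4-1 replicates 2 and 3. The left bin of AT2TE52215, chr2:11993201-11993300, had 176, 309 and 347 RPM in heso1-1, 237, 472 and 195 RPM in urt1-1, 138, 379 and 406 RPM in ntp4-1, and 131, 288 and 319 RPM in Col-0. In each genotype the lowest value came from one of the 5 libraries that stood apart. The 4 leading bins of AT5TE31885 ranged over 170 to 430 RPM in heso1-1, 167 to 443 RPM in urt1-1, 47.9 to 360 RPM in ntp4-1 and 184 to 390 RPM in Col-0. Each of these 4 bins has a copy of 92% to 95% identity on chromosome 4, near 6.73 Mb. None of the 10 leading bins passed the test in any comparison, and the adjusted p ranged over 0.775 to 0.995 in heso1-1, 0.683 to 0.935 in urt1-1 and 0.103 to 0.775 in ntp4-1 (limma). With the replicate number as a block, 7 of the 10 were called lower in ntp4-1, in a fit that called 27.5% of all bins. In 9 of the 10 the lowest of the 12 libraries was ntp4-1 replicate 1, as the plot of the leading bins shows.

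**Figure D1:**
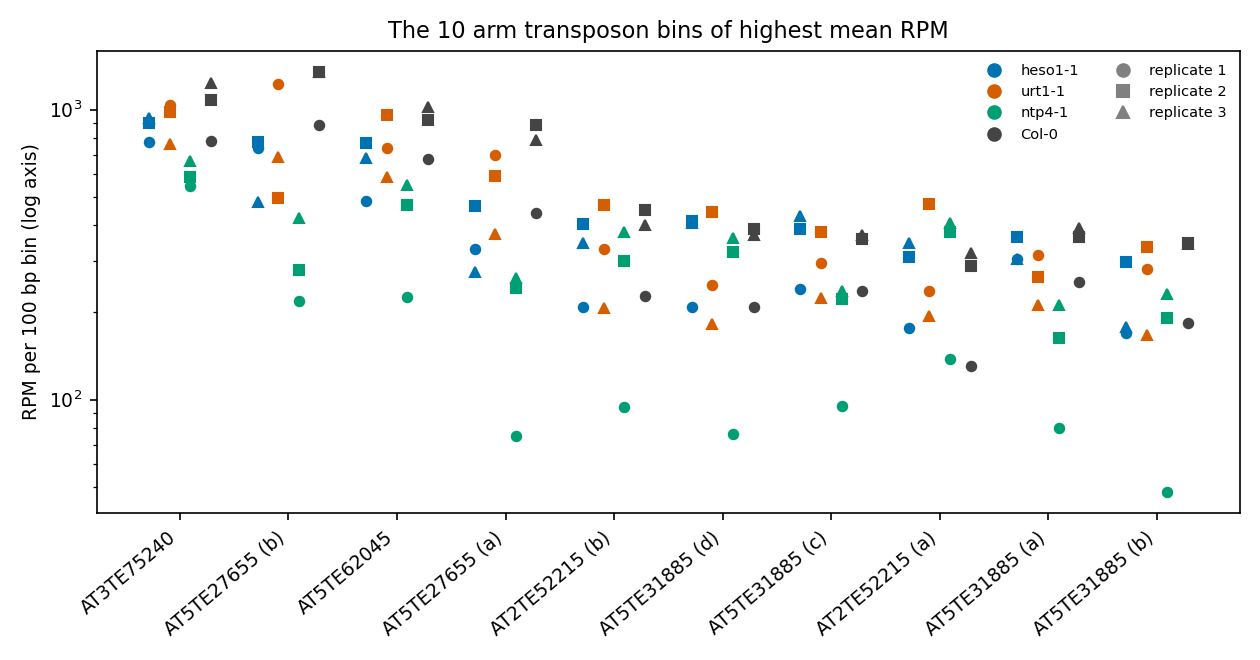
RPM (log axis) in each of the 12 libraries for the 10 chromosome-arm transposon bins of highest mean, in order of that mean, with the element named under each and letters for bins of the same element from left to right. Colours are genotypes and symbols are replicates; the green circles, ntp4-1 replicate 1, reach down to 47.9 RPM, while the AT3TE75240 bin stays between 545 and 1235 RPM in all libraries.

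The first question was whether arm transposon small RNA as a whole differed between each mutant and Col-0. The summed level was 20501, 33665 and 26495 RPM in heso1-1, 25221, 32947 and 18153 RPM in urt1-1, 8743, 21589 and 25473 RPM in ntp4-1, and 25436, 38955 and 35363 RPM in Col-0. The means were 26887 ± 6591, 25441 ± 7400 and 18601 ± 8756 RPM in heso1-1, urt1-1 and ntp4-1 and 33251 ± 7002 RPM in Col-0 (SD, n = 3 each). Each mutant's range overlapped with that of Col-0. Within the 5 libraries that stood apart every mutant library was below the 1 Col-0 library, and within the other 7 every mutant library was below both Col-0 libraries. By a two-sided exact permutation test, which cannot go below 0.1 with 3 against 3 libraries, the adjusted p over the 3 comparisons was 0.3 for each mutant.

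As a share of the listed RPM, arm transposon bins made up 4.34%, 5.67% and 4.48% in heso1-1, 4.93%, 5.43% and 4.16% in urt1-1, 3.04%, 4.45% and 4.69% in ntp4-1, and 4.87%, 5.77% and 5.56% in Col-0. Among the 3 mutants ntp4-1 alone lay wholly below Col-0, by 1.34 percentage points in the mean (exact permutation p = 0.1, adjusted 0.3). Without ntp4-1 replicate 1 the difference was -0.828 points, and over bins with no repeated 24-base word it was -0.441 points. This is the smallest p that the design allows. Members with at least 1 read numbered 7200 to 9451 in heso1-1, 7246 to 8243 in urt1-1, 5223 to 8475 in ntp4-1 and 8141 to 9237 in Col-0. Such numbers also depend on the depth of each library.

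Set against the pericentromeric bins, which have the same kind of annotation, the arm bins were highest in proportion in urt1-1. The log2 ratio of arm to pericentromeric RPM was -0.46, -0.47 and -0.50 in heso1-1, -0.34, -0.40 and -0.42 in urt1-1, -0.52, -0.48 and -0.48 in ntp4-1, and -0.52, -0.46 and -0.46 in Col-0. The 3 urt1-1 libraries lay above the 3 Col-0 libraries, by 0.0876 in the mean (exact permutation p = 0.1, adjusted 0.3). Without the 10 leading bins the difference was 0.0481 (exact permutation p = 0.2) and the groups overlapped. Within the 5 libraries that stood apart, urt1-1 had -0.34 and -0.42 and Col-0 had -0.52, and within the other 7, urt1-1 had -0.40 and Col-0 had -0.46 and -0.46. The difference was -0.00345 in heso1-1 (exact permutation p = 0.8) and -0.0144 in ntp4-1 (exact permutation p = 0.5, adjusted 0.75).

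**Figure D2:**
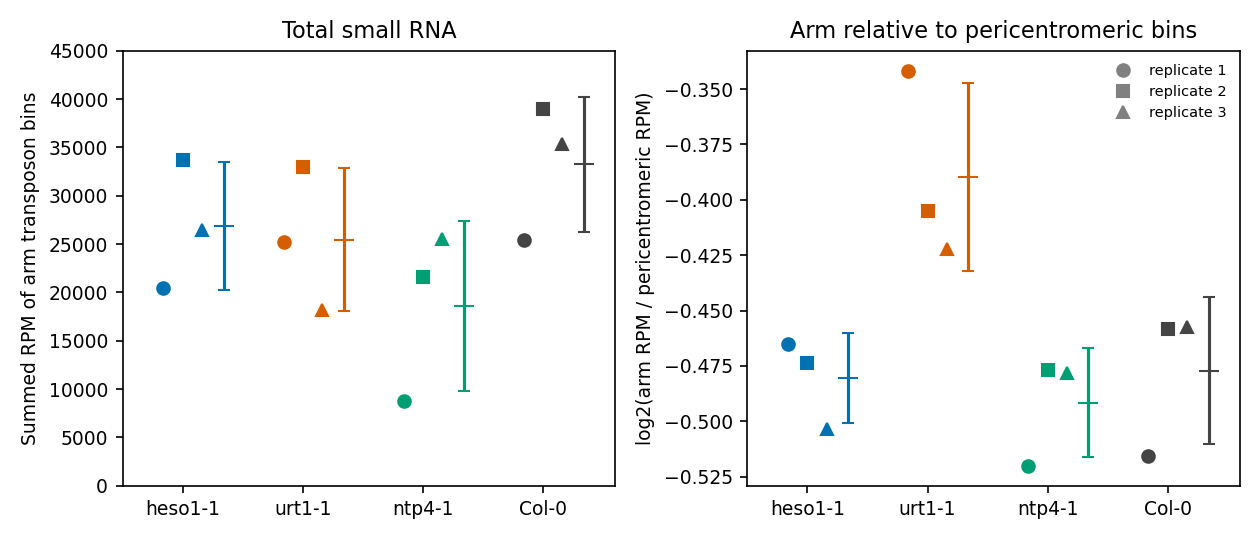
Left, summed RPM of the 9748 chromosome-arm transposon bins in each library; right, log2 of the ratio of that sum to the sum over pericentromeric transposon bins. Points are libraries (symbols give the replicate) and bars are mean ± SD of 3 libraries; the sums overlap between genotypes with ntp4-1 replicate 1 lowest at 8743 RPM, and the 3 urt1-1 ratios (-0.42 to -0.34) lie above those of Col-0 (-0.52 to -0.46).

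The arm bins also differed in where on the genome their RPM lay. Chromosome 5 held 30.1% to 31.0% of the members' RPM in heso1-1, 30.0% to 33.2% in urt1-1, 27.4% to 28.7% in ntp4-1 and 30.4% to 32.2% in Col-0. Chromosome 2 held 14.8% to 16.6% in heso1-1, 14.3% to 17.1% in urt1-1, 16.0% to 17.6% in ntp4-1 and 14.4% to 15.2% in Col-0. The ntp4-1 and Col-0 ranges did not overlap on either chromosome; this was not tested. The pair of AT5TE27655 bins alone made up 2.42% to 3.36% of the members' RPM in ntp4-1 and 5.22% to 6.04% in Col-0.

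Single bins were compared by limma, a linear model that shares the estimate of spread over all bins tested, on log2(RPM + 0.5), with Benjamini-Hochberg adjustment over every bin of the table with a mean of at least 1 RPM. A difference is called at an adjusted p under 0.05. The scale understates the change of bins with few reads. The 3 comparisons share the Col-0 libraries, so their results are not independent. The same test was run for elements, on the sum of the bins that list each. The replicates are biological by the labels, and p-values measure the spread between those samples.

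In heso1-1 few arm transposons differed from Col-0. Of 4117 members tested 1 was called (0.0243%), lower in heso1-1. Over all bins 0.0527% were called in either direction, 0.0206% as higher and 0.0321% as lower. The median log2 fold change was -0.18 in members and -0.23 over all bins tested. With a term for the 5 libraries that stood apart these medians were the same. Within the other 7 they were -0.18 and -0.24. The members' median turned positive without heso1-1 replicate 1 (0.053), without Col-0 replicate 2 (0.0038), and on recovered reads by edgeR (0.073) and DESeq2 (0.055). Both tools rescale the libraries to each other, and the median over all bins was -0.0097 by edgeR and -0.030 by DESeq2. Their medians therefore cannot show a shift common to all bins. In 366 members each heso1-1 library lay below each Col-0 library (8.89%, against 12.3% of all bins), and 36 lay wholly above (0.874%, against 1.3%). Of 1762 member elements tested 2 were called, AT2TE60325 and AT1TE71640, both lower (0.0722% of all elements were called, 0.0481% as lower). Same-numbered heso1-1 and Col-0 libraries deviated together, but heso1-1 replicate 3 deviated more like Col-0 replicate 2 (Pearson's r = 0.236) than Col-0 replicate 3 (0.177). With the replicate number as a block 7 member elements were called, 3 higher and 4 lower (0.177% of all elements). With TMM scaling 1 was higher and 2 were lower (0.0722% of all elements). With a term for the 5 libraries that stood apart, 1 member bin was called (0.055% of all bins).

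The AT1TE71640 element, chr1:21710401-21710600, gave 6.13, 3.75 and 14.5 RPM in heso1-1, 37.8, 28.1 and 31.0 RPM in urt1-1, 14.5, 18.6 and 22.5 RPM in ntp4-1, and 62.2, 71.8 and 58.0 RPM in Col-0. Nearly all of it came from the bin printed above, which has a GC content of 50% and no second copy in the genome. Each mutant library lay under each Col-0 library, and the heso1-1 mean was lowest. The change in heso1-1 was a log2 fold change of -3.10 ± 0.43 (SE), with a limma adjusted p of 0.0239. It was 0.144 without heso1-1 replicate 2 and 0.0544 with TMM scaling. Without each other library in turn it stayed called, and over all alternatives the adjusted p ranged over 0.00207 to 0.601. In ntp4-1 the log2 fold change was -1.78 ± 0.38 (limma adjusted p = 0.148, with 0.00038 under the replicate block and 0.000299 to 1 over all alternatives). In urt1-1 it was -0.98 ± 0.25 (limma adjusted p = 0.465).

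AT2TE60325, chr2:13702401-13702600, fell to almost no reads in all 3 mutants. It has 2 listed bins, stands 638 bp from the nearest gene of the reference (AT2G08505) and has no other listed bin within 1000 bp. Its right bin, printed above, had 0.111, 0 and 0 RPM in heso1-1, 0, 0.271 and 0 RPM in urt1-1, 0, 0.203 and 0 RPM in ntp4-1, and 15.4, 16.1 and 17.1 RPM in Col-0. The mutants thus had at most 1 read per library, and the 3 Col-0 libraries had nearly the same level. Its left bin had 0 RPM in all mutant libraries other than ntp4-1 replicate 2 (0.810 RPM), against 1.35, 3.43 and 4.82 RPM in Col-0.

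For this bin the log2 fold change was -4.96 ± 0.39 in heso1-1 (SE, adjusted p = 0.000333 by limma), -4.85 ± 0.37 in urt1-1 (adjusted p = 0.000922) and -4.89 ± 0.46 in ntp4-1 (adjusted p = 0.0101). In heso1-1 and urt1-1 the call held without each of the 6 libraries in turn. In ntp4-1 it was lost without ntp4-1 replicate 2 (limma adjusted p = 0.0737) or 3 (0.112) and without Col-0 replicate 2 (0.0941) or 3 (0.0825). The edgeR test on reads, which lacks Col-0 replicate 3, gave 0.196 in heso1-1, 0.145 in urt1-1 and 0.599 in ntp4-1. Over all alternatives the adjusted p ranged up to those values in heso1-1 and ntp4-1 and up to 0.726 in urt1-1, and no alternative turned the direction. The element as a whole was called in each comparison, at limma adjusted p of 0.000228, 0.001 and 0.0289. In ntp4-1 the element's call held in 1 of 6 cases when a library was left out, namely without ntp4-1 replicate 1 (0.00111), and was lost in the others (up to 0.176). It was also lost when scaled to listed bins (0.0515), with a pseudocount of 0.1 (0.162) and by edgeR (0.834), the highest over all alternatives. All 24-base words of both bins are found once in the reference, so a 24-base read from them has 1 exact place there.

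In urt1-1, 3 of 3903 members tested were called (0.0769%), all lower than in Col-0. Over all bins 0.186% were called, 0.074% as higher and 0.112% as lower. With TMM scaling 1 was higher and 3 were lower (0.291% of all bins). The median log2 fold change was -0.37 in members and -0.40 over all bins. The members' median ranged over -0.61 to -0.15 when 1 library was left out, and on recovered reads it was 0.047 by edgeR and 0.032 by DESeq2. After the rescaling of libraries by these tools the median over all bins was 0.0031 and -0.015. With a term for the 5 libraries that stood apart, the limma median was -0.11 in members and -0.20 over all bins. Within those 5 libraries, of which 1 is Col-0, it was -0.22 and -0.26. Among the libraries that did not stand apart, of which 1 is urt1-1, it was -0.015 and -0.11. The size of the urt1-1 shift thus depended on the library sets. In 459 members all urt1-1 libraries lay below Col-0 (11.8%, against 14.7% of all bins), and in 24 they lay above (0.615%, against 1.15%). Of 1720 member elements 2 were called, both lower (0.138% of all elements, 0.106% as lower). With TMM scaling 2 were higher and 2 lower (0.187% of all elements). With a term for the 5 libraries that stood apart, which hold 2 of the 3 urt1-1 libraries, 132 member bins were called, 15 higher and 117 lower (4.05% of all bins). Besides AT2TE60325, the calls were the bin shared by AT2TE49070 and AT2TE49075 and 1 bin of AT1TE02540.

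The shared bin at chr2:11346501-11346600 had 0.387, 0.271 and 0 RPM in urt1-1, 0.223, 1.34 and 0 RPM in heso1-1, 2.77, 6.48 and 5.12 RPM in ntp4-1, and 5.39, 12.9 and 10.5 RPM in Col-0. Both urt1-1 and heso1-1 lay below Col-0, and ntp4-1 overlapped with it. In urt1-1 the log2 fold change was -3.77 ± 0.45 (SE, limma adjusted p = 0.0116). The call was lost without urt1-1 replicate 1 (0.0631) or 3 (0.0542) and without Col-0 replicate 2 (0.116) or 3 (0.110), and over all alternatives the adjusted p ranged over 7.66e-05 to 0.726. In heso1-1 the log2 fold change was -3.45 ± 0.55 (limma adjusted p = 0.0656). The adjacent bin to the right, which lists no annotation, had 0.129, 0.271 and 0 RPM in urt1-1, 0, 0.0894 and 0 RPM in heso1-1, 0.527, 7.50 and 8.23 RPM in ntp4-1, and 1.98, 5.76 and 5.23 RPM in Col-0. The low level in urt1-1 and heso1-1 thus ran past the annotated end of the elements.

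The AT1TE02540 bin had 0.258, 0 and 0 RPM in urt1-1, 0, 0.894 and 2.54 RPM in heso1-1, 0, 0 and 4.20 RPM in ntp4-1, and 5.39, 3.98 and 6.73 RPM in Col-0. The urt1-1 libraries lay below Col-0 with a log2 fold change of -3.33 ± 0.42 (SE, limma adjusted p = 0.0151). The call survived the removal of Col-0 or urt1-1 libraries in 1 of 6 cases (adjusted p 0.00909 to 0.292); it was lost without Col-0 replicate 1, 2 or 3 and without urt1-1 replicate 1 or 3. The bin overlaps the reference gene AT1G03200, 28% of its 24-base words are found once and 54 other places in the genome match it at 80% identity or more, so the source of its reads is uncertain.

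In ntp4-1 the size of the median shift and the count of calls depended on 1 library and on the model. Of 3780 members tested 1 was called higher and 1 lower, together 0.0529%. Over all bins 0.0756% were called, 0.00756% as higher and 0.068% as lower. The median log2 fold change was -0.70 in members and -0.75 over all bins. Without ntp4-1 replicate 1 it was -0.17 in members and -0.30 over all bins. Among replicates 2 and 3 of ntp4-1 and Col-0, which did not stand apart, it was -0.41 in members and -0.48 over all bins. With a term for the 5 libraries that stood apart it stayed at -0.70 and -0.75. On recovered reads, without Col-0 replicate 3, the members' median was 0.060 by edgeR and 0.12 by DESeq2. Both tools rescale the libraries to each other, and the median over all bins was 0.0040 and 0.062. These medians therefore cannot show a shift common to all bins. In 916 members all ntp4-1 libraries lay below Col-0 (24.2%, against 28.6% of all bins), and in 5 they lay above (0.132%, against 0.572%). Same-numbered ntp4-1 and Col-0 libraries deviated together, but ntp4-1 replicate 3 deviated more like Col-0 replicate 2 (Pearson's r = 0.382) than Col-0 replicate 3 (0.326). With the replicate number as a block 987 members were called, 16 higher and 971 lower (27.5% of all bins called). With the block and TMM scaling together 85 were called, 5 higher and 80 lower (2.32% of all bins). Without ntp4-1 replicate 1, the library with the fewest listed reads in proportion, 234 were called, 16 higher and 218 lower (6.7% of all bins). With a term for the 5 libraries that stood apart 1163 were called (32.9% of all bins). No member passed by edgeR (0% of all bins), where 141 of 3780 members and 2279 of 39696 bins had an unadjusted p under 0.05. By DESeq2 9 members were called (0.491% of all bins).

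In each comparison the median over all bins shifted with that of the members. TMM scaling moved the median of all bins to -0.33 in ntp4-1, -0.15 in urt1-1 and -0.16 in heso1-1. The medians of members then stood at -0.30, -0.13 and -0.11. Of 1719 member elements tested in ntp4-1, AT1TE05700 was called higher and AT2TE60325 lower (0.0665% of all elements were called, 0.0166% as higher and 0.0499% as lower), and with the block 8 were called higher and 478 lower (32.8% of all elements). With TMM scaling alone 1 was higher and 2 were lower (0.0748% of all elements).

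**Figure D3:**
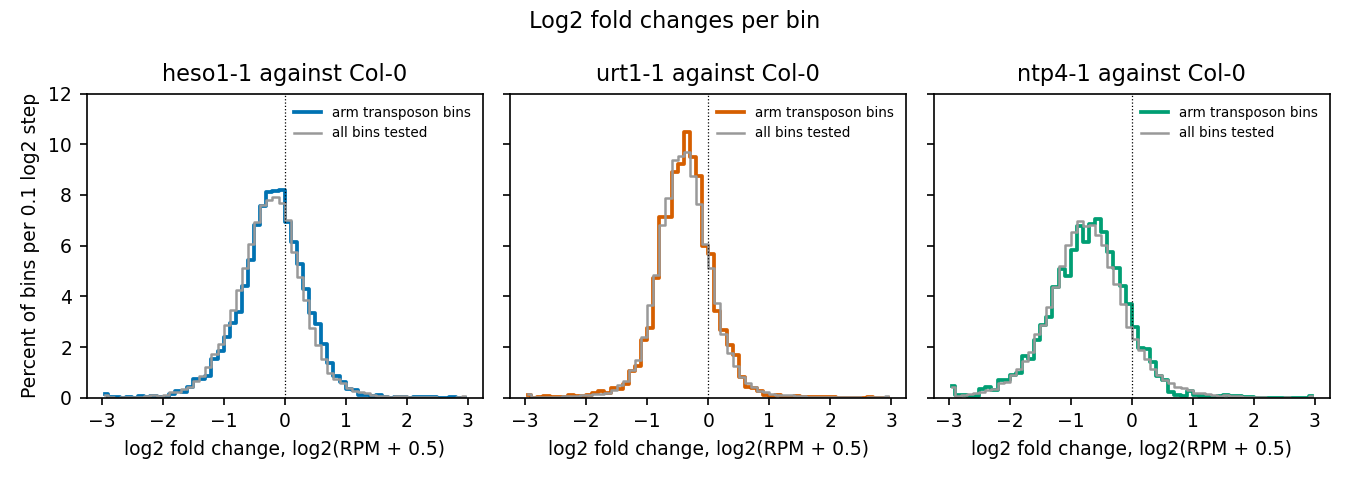
Percent of bins in each step of 0.1 of the log2 fold change on the log2(RPM + 0.5) scale, for chromosome-arm transposon bins (coloured) and for all bins tested (grey), with values beyond 3 placed in the end steps. The coloured and grey curves lie nearly on each other, and the member medians are -0.18 (heso1-1), -0.37 (urt1-1) and -0.70 (ntp4-1).

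AT1TE05700, chr1:1738901-1739200, gave small RNA in ntp4-1 and almost none elsewhere. The element had 13.4, 16.0 and 21.6 RPM in ntp4-1, 0, 0 and 0 RPM in heso1-1, 0.258, 0 and 0 RPM in urt1-1, and 0, 0 and 0.302 RPM in Col-0. Its strongest bin, printed above, had 10.8, 8.91 and 11.3 RPM in ntp4-1, against 0, 0 and 0.201 RPM in Col-0, and was at 0 in all heso1-1 and urt1-1 libraries. The log2 fold change was 4.27 ± 0.46 for the bin (SE, limma adjusted p = 0.0140) and 4.88 ± 0.50 for the element (adjusted p = 0.0203). The bin's call held without ntp4-1 replicate 1 (0.0011), was lost without each of the other 5 libraries (up to 0.159), with a pseudocount of 0.1 (0.0605) and by edgeR (0.722). For the element the call stayed in 1 of 6 cases when a library was left out, with adjusted p 0.000798 to 0.159; leaving out Col-0 replicate 1, 2 or 3 or ntp4-1 replicate 2 or 3 lost it. Over all alternatives the limma adjusted p of the element ranged from 5.75e-23 with the replicate block up to 0.172, the edgeR value.

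The AT1TE05700 bin has 1 close copy in the reference, on chromosome 5 in a pericentromeric element, AT5TE37800. Shown on the strand that matches the printed bin, with capitals here marking the bases that differ from it, the copy at chr5:10350379-10350478 (minus strand) reads as follows.
AT5TE37800 copy, chr5:10350379-10350478: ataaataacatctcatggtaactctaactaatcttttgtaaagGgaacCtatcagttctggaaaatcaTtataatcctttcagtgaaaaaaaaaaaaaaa
The identity is 97%. Counted from the 5′ end of the chromosome 1 bin, the differences are A44G, T49C and A69T, so reads over those positions can tell the copies apart. The chromosome 5 bin was present in all genotypes. It had 2.37, 8.31 and 13.3 RPM in ntp4-1, 18.6, 16.1 and 16.7 RPM in heso1-1, 16.2, 21.4 and 14.8 RPM in urt1-1, and 7.91, 12.4 and 12.5 RPM in Col-0. The gain at AT1TE05700 was thus not met by a like gain at its copy, whose ntp4-1 and Col-0 ranges overlapped.

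**Figure D4:**
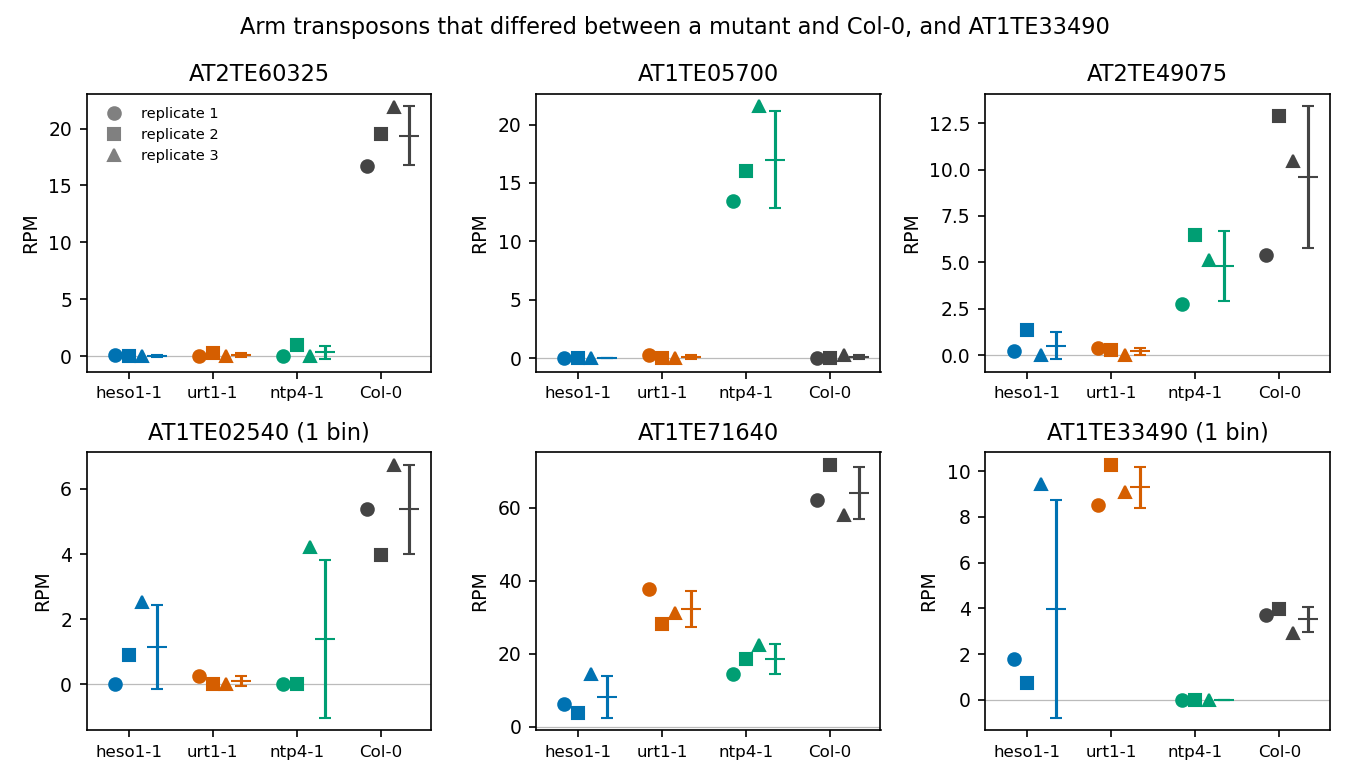
RPM in each library for the arm transposons called in at least 1 comparison (AT2TE60325, AT1TE05700, AT2TE49075, 1 bin of AT1TE02540, AT1TE71640) and for 1 bin of AT1TE33490, which was not called. Points are libraries, symbols are replicates and bars are mean ± SD of 3 libraries; AT2TE60325 is at most 1.01 RPM in the mutants and at least 16.7 RPM in Col-0, and AT1TE05700 is at least 13.4 RPM in ntp4-1 and at most 0.302 RPM elsewhere.

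Some arm transposons fell just short of the threshold. A bin of AT1TE33490, chr1:10363201-10363300, had 0 RPM in all ntp4-1 libraries, 1.78, 0.715 and 9.42 RPM in heso1-1, 8.51, 10.3 and 9.08 RPM in urt1-1, and 3.69, 3.98 and 2.91 RPM in Col-0. It was at 0 in ntp4-1 and highest in urt1-1, with limma adjusted p of 0.540 in urt1-1 and 0.0706 in ntp4-1. In ntp4-1 the alternatives ranged from 2.47e-05 with the replicate block to 0.757. A bin of AT1TE95100, chr1:29078801-29078900, had 8.03, 18.4 and 22.5 RPM in ntp4-1 and 91.3, 176 and 165 RPM in Col-0, a log2 fold change of -3.16 ± 0.56 (SE, limma adjusted p = 0.0944, with alternatives from 8.94e-07 with the block to 0.757). The heso1-1 libraries (52.1 to 99.9 RPM) and urt1-1 libraries (65.6 to 109 RPM) overlapped with Col-0 there. This bin has 59 other matches of 80% identity or more.

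The following elements had higher values in some mutants and reached at most 8.93 RPM. AT4TE63690, chr4:13536501-13536700, had 2.90, 4.74 and 5.79 RPM in heso1-1, 1.93, 3.79 and 1.30 RPM in urt1-1, 0.922, 4.86 and 4.57 RPM in ntp4-1, and 0.180, 0.137 and 0.201 RPM in Col-0. Every mutant library lay above every Col-0 library, and limma gave an adjusted p of 0.0572 for heso1-1, 0.405 for urt1-1 and 0.175 for ntp4-1. With the replicate block it was 0.0422 in heso1-1 and 1.23e-05 in ntp4-1, and the alternatives ranged over 0.00141 to 0.303 and 1.23e-05 to 0.628 in these mutants. AT4TE33830, chr4:7721001-7721200, had 4.68, 5.63 and 4.71 RPM in heso1-1, 6.84, 8.93 and 3.89 RPM in urt1-1, 1.19, 4.66 and 2.38 RPM in ntp4-1, and 0, 1.37 and 0.302 RPM in Col-0. The heso1-1 and urt1-1 libraries were above Col-0, and ntp4-1 replicate 1 was within its range. AT1TE87610, chr1:26771301-26771500, separated the mutants: it had 2.12, 2.32 and 1.09 RPM in heso1-1 and 3.22, 4.06 and 2.46 RPM in urt1-1, but 0.132, 0.405 and 0 RPM in ntp4-1 and 0.180, 0 and 0.101 RPM in Col-0. In urt1-1 its limma adjusted p was 0.0569 (0.000202 to 0.441 over the alternatives).

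Several elements of higher level had low values in ntp4-1 without passing the test. AT3TE36725, chr3:8757801-8757900, had 6.85, 9.12 and 13.0 RPM in ntp4-1, 30.6, 28.0 and 9.78 RPM in heso1-1, 39.2, 15.7 and 20.6 RPM in urt1-1, and 59.8, 56.0 and 46.1 RPM in Col-0. All 9 mutant libraries lay below Col-0, with a limma adjusted p of 0.116 in ntp4-1 (5.78e-07 with the replicate block, up to 1 over the alternatives). AT1TE70850, chr1:21470101-21470400, had 25.5, 14.6 and 24.9 RPM in ntp4-1, 91.7, 60.6 and 31.5 RPM in heso1-1, 102, 29.8 and 67.2 RPM in urt1-1, and 125, 86.6 and 89.8 RPM in Col-0. Here ntp4-1 lay below Col-0 and the other mutants overlapped with it (limma adjusted p = 0.140 in ntp4-1, with 2e-06 under the block and up to 1 over the alternatives). The strongest element made up wholly of members, AT5TE62045 at chr5:17174501-17174700, had 240, 503 and 599 RPM in ntp4-1, 515, 807 and 707 RPM in heso1-1, 783, 1001 and 622 RPM in urt1-1, and 716, 971 and 1062 RPM in Col-0.

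Replicates of a genotype varied by much of the size of these shifts. Over the 3825 members with a mean of at least 1 RPM, the median coefficient of variation between replicates was 50.7% in heso1-1, 55.3% in urt1-1, 72% in ntp4-1 and 42.1% in Col-0. The numbers of members listed at 0 in all 3 libraries were 80 in heso1-1, 322 in urt1-1, 325 in ntp4-1 and 65 in Col-0. They also depend on depth, where known from 2761330 reads (heso1-1 replicate 3) to 11191516 reads (heso1-1 replicate 2), and were not tested.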

How the data were processed

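Per the labels, total RNA from inflorescences was made into small RNA libraries with a NEBNext kit. The authors deposited 1 table of 100 bp bins with RPM, reads in a bin relative to the depth of its library, in 12 columns and the annotation of each bin; 0 other value columns were found. How reads were aligned, to which build, and how reads with several matches were placed is not given in the sources used here. In 11 columns every value is a whole multiple of 1 read (tolerance 1e-06); Col-0 replicate 3 was left out of tests on reads. Coordinates matched RefSeq TAIR10.1: 99.5% of 67482 gene listings overlapped the named gene.

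Bins and elements averaging 1 RPM or more over the 6 libraries of a comparison were tested with limma 3.58.1 (R 4.3.3, trend) on log2(RPM + 0.5), two-sided, with Benjamini-Hochberg adjustment over all tested and a threshold of 0.05. Sums, shares and ratios of 3 against 3 libraries were tested by exact permutation (scipy 1.17.1). Alternatives were other pseudocounts, filters, scalings and arm boundaries, a replicate block, edgeR 4.0.16 and DESeq2 1.42.0 on recovered reads, and each library left out. A term for library sets, bins without repeated words, and TMM with the block were chosen after seeing the data. The limma and edgeR tests were run on simulated reads with large changes and no libraries that stood apart. That run does not give the error rates for these data. Copies were found with BLAST 2.17.0.

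Members, lists and tests were chosen with earlier results of these data known. Named were the 10 bins and 10 elements of highest mean, those called, and in each comparison the 5 smallest p-values each way. Further bins, such as copies and neighbours, were named after their values were seen. Family names of the elements were not available to the analysis, so family lists and reporter elements are not analysed here.

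The replicate number paired libraries by the correlation of same-numbered deviations from group means over all bins: Pearson's r was 0.549, 0.240 and 0.177 for heso1-1 and 0.650, 0.381 and 0.326 for ntp4-1, each above 0.1. For urt1-1 it was 0.386, 0.444 and -0.277, so urt1-1 was not treated as paired. Libraries of unlike number also deviated together. Replicate 2 of the mutant with Col-0 replicate 3 gave 0.215 in heso1-1 and 0.337 in ntp4-1. Replicate 3 with Col-0 replicate 2 gave 0.236 and 0.382. The numbers thus set replicate 1 apart, but do not show which of replicates 2 and 3 belong together.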

Additional observations from a re-analysis of the deposited data

How the results depend on the processing

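Differences in summed RPM and in share kept their sign under all alternatives run; 3 libraries against 3 cannot reach 0.05. Paired by replicate number, the exact sign-flip p of the sums was 0.25 in each comparison, the smallest that 3 pairs allow. Leaving out 1 library gave -10271 to -3171 RPM in heso1-1, -11718 to -4167 RPM in urt1-1 and -18557 to -9720 RPM in ntp4-1, and share differences of -0.99 to -0.324, -0.853 to -0.221 and -1.65 to -0.828 points. The log2 ratio of arm to pericentromeric bins kept its sign in urt1-1, at 0.064 to 0.104 without 1 library, 0.0481 without the 10 leading bins, 0.0584 with arm boundaries 1 Mb inward and 0.171 over bins with no repeated 24-base word. In heso1-1 it turned positive without the leading bins (0.00558), over bins with no repeated word (0.0242) and within the 5 libraries that stood apart (0.0506), and ranged over -0.0226 to 0.00801 without 1 library. In ntp4-1 it turned positive without the leading bins (0.00524) and over bins with no repeated word (0.0870, exact permutation p = 0.1). The cause was not tested.

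Counts of members called depended on the model, and percentages give the share called of all bins or all elements in the same fit. In heso1-1 the counts were 3 bins with a pseudocount of 1 (0.0687%), 6 bins (0.061%) and 4 elements (0.0773%) with no filter, 4 elements scaled to listed bins (0.0963%), 6 bins (0.261%) and 9 elements (0.225%) with DESeq2, 7 elements with the replicate block (0.177%; 0.152% with TMM, also 7), and 9 elements with the library-set term (0.209%). Within the 7 libraries that did not stand apart 1 element was called (0.0623%).
In urt1-1 they were 9 bins with no filter (0.0998%), 4 elements with TMM (0.187%), 13 bins (0.513%) and 8 elements (0.285%) with DESeq2, 132 bins (4.05%) and 90 elements (4.59%) with the set term, and 152 bins (3.51%) and 271 elements (14%) within the 7 libraries, where the lone urt1-1 library is assumed to vary like the others. Within the 5 that stood apart, the median log2 fold change of urt1-1 was -0.22 in member bins and -0.26 over all bins. Only 1 Col-0 library is in this set, so calls within it are not counted here. The numbers of urt1-1 did not pair with Col-0 over all replicates (urt1-1 replicate 3 deviated most like Col-0 replicate 1, r = 0.434). There the replicate block gave 14 bins (0.566%) and 10 elements (0.513%), and with TMM 5 bins (0.289%) and 4 elements (0.195%).
In ntp4-1 they were 0 bins (0.00504%) and 0 elements (0%) with a pseudocount of 0.1. There 578 members (6576 of all bins) and 267 member elements (2409 of all elements) had an unadjusted p under 0.05 by limma. Other fits called 8 bins with no filter (0.0939%), 4 bins with TMM (0.0857%) and 1 element scaled to listed bins (0.0416%). DESeq2 called 9 bins (0.491%) and 6 elements (0.299%). The replicate block called 987 bins (27.5%) and 486 elements (32.8%), and TMM with the block 85 (2.32%) and 37 (1.69%). The set term called 1163 (32.9%) and 679 (47%), and the fit within the 7 libraries 715 (17.7%) and 422 (27%).

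By edgeR on reads, 0 member bins were called in each comparison (0%, 0.00239% and 0% of all bins in heso1-1, urt1-1 and ntp4-1). At an unadjusted p under 0.05 were 106 of 4117, 117 of 3903 and 141 of 3780 members. Over all bins these were 1471 of 43648, 1364 of 41906 and 2279 of 39696. Member elements called were 1, 1 and 0 (0.0321%, 0.0489% and 0% of all elements). In ntp4-1, 75 of 1719 member elements and 409 of 12025 elements had such an unadjusted p. Without 1 library the bins called were 1 to 3 in heso1-1 (0.0281% to 0.0669% of all bins), 1 to 4 in urt1-1 (0.0517% to 0.303%) and 0 to 234 in ntp4-1 (0% to 6.7%), and the elements 1 to 4 (0.0404% to 0.135% of all elements), 1 to 5 (0.0805% to 0.273%) and 0 to 110 (0% to 5.83%). The highest ntp4-1 counts came without ntp4-1 replicate 1. Alternatives were also counted for bins and elements named for a call or a small p, in that same comparison. There 825 values kept their side of the threshold, 189 passed it newly, 56 no longer passed it and 0 turned sign. These items were picked for small p in the same libraries, so the kept signs do not test the results. With 3 libraries a group and 1 read worth up to 0.362 RPM, small changes of the many bins under 1 RPM were not detectable at this depth.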

Other observations

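AT2TE55860, chr2:12773801-12774000, had its highest values in heso1-1, with 4.90, 14.5 and 0.724 RPM. It had 0 RPM in all urt1-1 libraries, 0, 1.22 and 0 RPM in ntp4-1, and 0, 0 and 0.101 RPM in Col-0, and its limma adjusted p in heso1-1 was 0.530 (0.000631 to 0.812 over the alternatives). AT1TE30820, chr1:9565301-9565500, had 0.223, 0.0894 and 0.362 RPM in heso1-1, 0.129, 0.271 and 0.130 RPM in urt1-1, 0 RPM in all ntp4-1 libraries, and 2.52, 1.65 and 1.91 RPM in Col-0. Each mutant library lay below each Col-0 library there, and no comparison passed the limma test (adjusted p = 0.591, 0.283 and 0.140 in heso1-1, urt1-1 and ntp4-1, and 7.45e-06 in ntp4-1 with the replicate block).

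AT4TE29915, chr4:6934301-6934900, had higher values in each ntp4-1 library than in any Col-0 library, with 8.43, 13.4 and 11 RPM in ntp4-1 and 1.08, 5.76 and 4.12 RPM in Col-0. It had 6.46, 8.76 and 3.26 RPM in heso1-1 and 0.774, 5.14 and 0.778 RPM in urt1-1, which overlapped with Col-0. The limma adjusted p in ntp4-1 was 0.202 (0.00286 to 1 over the alternatives). AT2TE76330, chr2:16953301-16953400, had 0.223, 1.61 and 2.17 RPM in heso1-1, 1.42, 0.812 and 0.519 RPM in urt1-1, 0.132, 1.62 and 2.01 RPM in ntp4-1, and 5.21, 11.8 and 7.74 RPM in Col-0. Every mutant library lay below Col-0, with limma adjusted p of 0.423, 0.0996 and 0.182 in heso1-1, urt1-1 and ntp4-1, and 7.17e-06 in ntp4-1 with the replicate block.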
